A study of Mus musculus with 7 samples.

Results

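The Nkx homeobox genes described here are 6 genes of the NK homeobox class, Nkx2-1, Nkx2-2, Nkx2-3, Nkx2-5, Nkx6-1 and Nkx6-2. They were chosen by symbol from 23366 gene symbols in the deposited H3K27me3 gene-body counts, and each had a single entry in them. The counts came from chromatin immunoprecipitation and sequencing of spermatocytes from wild-type CD1 mice at postnatal days 12 (P12) and 17 (P17), enriched from enzymatically digested testes on Percoll. Both groups carried the same genotype and strain and no treatment; P12 was 1 library and P17 was a deposited pool of 2 replicates. Of the 7 samples of the series, the P12 and P17 H3K27me3 samples were used here. The peak lists for H3K27me3, H3K4me3 and the Polycomb protein EED hold mm9 positions without gene names and were not used here. The gene-body counts do not measure expression, so the labelled cell type could not be checked against expressed markers.

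Nkx genes encode homeodomain transcription factors related to Drosophila tinman, bagpipe and their relatives. They specify cell types in the ventral neural tube and forebrain, pancreas, thyroid, lung, heart, gut and spleen. H3K27me3 is the methyl mark laid down by Polycomb repressive complex 2 (PRC2). In mammals it covers silent developmental regulators and often starts from CpG-rich promoters. The comparison of stages asks how this mark at somatic genes changes as male germ cells advance through meiosis, the subject that the series' title names.

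The bases before the start of 4 of these genes are shown because they give the CpG content of the Nkx6 pair, which had the highest and the lowest stage ratio of the 6, and of Nkx2-2 and Nkx2-5, which had the fewest CG dinucleotides. Each is the 250 bases before the RefSeq start, 5′ to 3′ on the gene's strand, with CG dinucleotides in capitals. Nkx6-1 is on the minus strand at chr5:101664712-101664961, Nkx6-2 on the minus strand at chr7:139582798-139583047, Nkx2-2 on the minus strand at chr2:147186403-147186652 and Nkx2-5 on the minus strand at chr17:26841566-26841815. The sequences and positions are RefSeq's for GRCm38.p6, the C57BL/6J reference and not the CD1 strain studied.
Nkx6-1: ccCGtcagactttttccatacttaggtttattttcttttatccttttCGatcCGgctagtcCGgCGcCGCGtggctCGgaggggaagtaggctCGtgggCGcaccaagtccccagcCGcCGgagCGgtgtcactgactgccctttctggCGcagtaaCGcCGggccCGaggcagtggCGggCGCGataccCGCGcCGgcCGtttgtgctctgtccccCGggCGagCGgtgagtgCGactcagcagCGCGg
Nkx6-2: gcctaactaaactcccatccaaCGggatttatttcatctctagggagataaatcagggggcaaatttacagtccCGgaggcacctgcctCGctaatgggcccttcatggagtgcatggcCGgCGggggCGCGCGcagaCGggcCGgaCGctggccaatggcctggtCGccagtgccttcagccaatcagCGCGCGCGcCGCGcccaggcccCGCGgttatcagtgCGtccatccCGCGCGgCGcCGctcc
Nkx2-2: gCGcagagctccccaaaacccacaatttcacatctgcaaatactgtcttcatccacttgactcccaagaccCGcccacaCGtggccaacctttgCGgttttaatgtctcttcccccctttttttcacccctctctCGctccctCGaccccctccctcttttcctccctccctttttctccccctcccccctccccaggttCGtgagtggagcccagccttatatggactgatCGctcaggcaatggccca
Nkx2-5: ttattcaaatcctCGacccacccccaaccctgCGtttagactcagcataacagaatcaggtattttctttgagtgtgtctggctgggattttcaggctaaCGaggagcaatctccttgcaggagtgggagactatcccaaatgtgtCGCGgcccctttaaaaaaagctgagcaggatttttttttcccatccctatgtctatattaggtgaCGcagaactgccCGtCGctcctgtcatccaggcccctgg

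The upstream sequences fell into a CG-dense and a CG-moderate set. Nkx6-1 held 30 CG dinucleotides and Nkx6-2 held 26, at percentiles 94.1 and 90.4 of 32851 RefSeq mouse promoters cut to the same length. Nkx2-3 held 14, Nkx2-1 held 9, and Nkx2-2 and Nkx2-5 held 8 each, against a median of 6 and an upper quartile of 16.0 over all promoters. G+C content was 65.2% at both Nkx6 genes and was lowest at Nkx2-5 (49.2%) and Nkx2-1 (50.8%), with a median of 52.4% over all promoters. Of the other Nkx genes with a promoter in the table, Nkx2-4 held 33 CG dinucleotides, Nkx1-1 held 30, Nkx3-2 held 21, Nkx1-2 held 19 and Nkx2-9 held 13. CG density thus varied within the Nkx2 subfamily, from 8 at Nkx2-2 and Nkx2-5 to 33 at Nkx2-4. The letters TNAAGTG, a form of the element bound by Nkx2-class homeodomains, were searched on both strands. They occurred once among the 6 and in 10.1% of all promoters. The match among the 6 was TCAAGTG, upstream of Nkx2-2 on the opposite strand. Its base farthest from the gene lay 197 bases before the start. The homeodomain core TAAT, searched on both strands, occurred upstream of Nkx2-2, Nkx2-5 and Nkx6-2 and in 54.9% of all promoters. The letters TATAAA occurred in none of the 6 on either strand and in 12.4% of all promoters. These matches describe letters in the window and not bound sites.

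H3K27me3 took a larger share of counted reads at P17 than at P12 over each of the 6 Nkx genes, by 1.16-fold to 1.49-fold. Together they held 6054 of 13462873 counted reads at P12 and 15829 of 26664736 at P17. As counts scaled to the total of gene-body counts at each stage (CPM), this was 450 CPM at P12 and 594 CPM at P17, a 1.32-fold ratio. With 1 file per stage there is no replicate check, no p-value was computed, and each 95% interval (exact Poisson for a level, exact conditional for a ratio) covers counting error only. P12 and P17 differ in library, depth and pooling as well as in stage, and these cannot be told apart. More mark per cell also cannot be told apart from more cells carrying it. Gene lengths in the build of the files were not used, so levels are compared within a gene and not ranked between genes. The later search for genes of similar level is likewise not corrected for length.

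**Figure D1:**
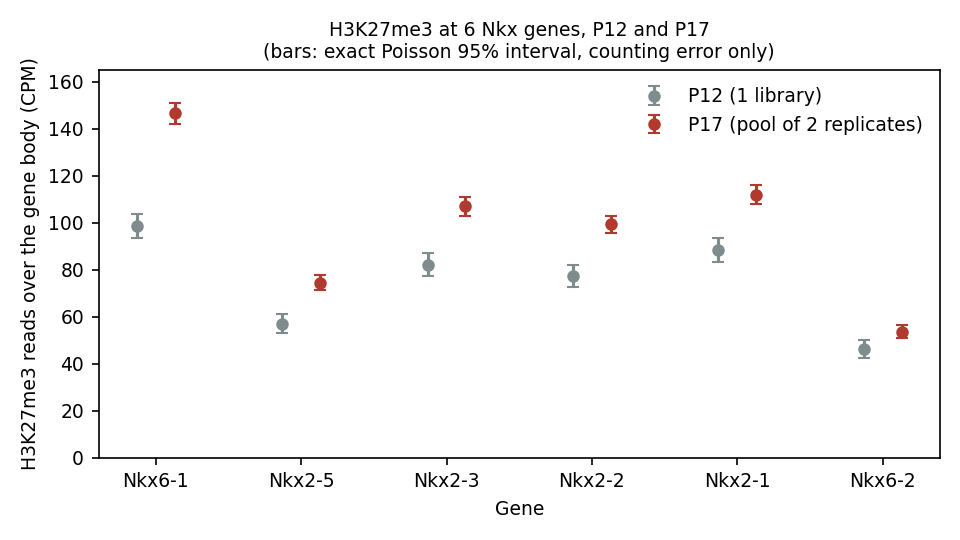
H3K27me3 reads over the gene body (CPM, y axis) at the 6 Nkx genes (x axis) in the P12 library (grey) and the P17 pool (red), with exact Poisson 95% intervals of the read counts as bars. The P17 point lies above the P12 point at each gene, from 46.2 and 53.7 CPM at Nkx6-2 to 98.6 and 147 CPM at Nkx6-1, and the intervals do not overlap.

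Nkx2-1, the regulator of thyroid, lung and ventral forebrain, carried 1190 reads at P12 and 2994 at P17, or 88.4 CPM (83.4 to 93.6) and 112 CPM (108 to 116). Its P17/P12 fold was 1.27 (1.19 to 1.36). Nkx2-2, which specifies ventral neural progenitors and takes part in oligodendrocyte and pancreatic endocrine differentiation, carried 1041 and 2652 reads, or 77.3 CPM (72.7 to 82.2) and 99.5 CPM (95.7 to 103). Its fold was 1.29 (1.20 to 1.38), close to that of Nkx2-1. At both genes the level was higher in the P17 pool, and the counting intervals of the stages did not overlap.

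Nkx2-3, a factor of gut mesenchyme and spleen, carried 1106 reads at P12 and 2850 at P17, or 82.2 CPM (77.4 to 87.1) and 107 CPM (103 to 111). Its fold was 1.30 (1.21 to 1.40). Nkx2-5, the cardiac factor, carried 767 and 1990 reads, or 57.0 CPM (53.0 to 61.2) and 74.6 CPM (71.4 to 78.0), a fold of 1.31 (1.20 to 1.43). The 4 Nkx2 genes therefore lay between 1.27-fold and 1.31-fold.

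The Nkx6 genes, which act in ventral neural progenitors and, for Nkx6-1, in insulin-producing beta cells, stood at both ends of the range. Nkx6-1 carried 1328 reads at P12 and 3911 at P17, or 98.6 CPM (93.4 to 104) and 147 CPM (142 to 151), a fold of 1.49 (1.40 to 1.58). Nkx6-2, also active in glia, carried 622 and 1432 reads, or 46.2 CPM (42.6 to 50) and 53.7 CPM (51.0 to 56.6), a fold of 1.16 (1.06 to 1.28). At P17 Nkx6-1 was higher by 48.0 CPM and Nkx6-2 by 7.50 CPM. The upstream sequences shown above were CG-dense at both.

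The order of the log2 ratios was Nkx6-1 at 0.57, Nkx2-5 at 0.39, Nkx2-3 at 0.38, Nkx2-2 at 0.36, Nkx2-1 at 0.34 and Nkx6-2 at 0.22. Of the 15 pairs, 5 differed beyond counting error (Wald 95% interval of the difference, not adjusted over the pairs), and Nkx6-1 was the higher gene in each. Nkx6-1 exceeded Nkx6-2 by 0.36 (0.19 to 0.52) and its nearest neighbour in the order, Nkx2-5, by 0.18 (0.03 to 0.33). The other 10 pairs, among Nkx2-5, Nkx2-3, Nkx2-2, Nkx2-1 and Nkx6-2, had intervals that include 0. The difference between Nkx2-1 and Nkx6-2 was 0.13 (-0.04 to 0.29).

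Each of the 6 genes exceeded the typical gene. The median log2 ratio over 21808 genes with at least 20 reads was -0.08, and the 10th and 90th percentiles were -0.34 and 0.47. The 6 Nkx genes had a median of 0.37, and their ratios stood at percentiles 80.5 (Nkx6-2) to 92.2 (Nkx6-1) of all genes. For 6 of 6 the counting interval lay above the all-gene median, as it did for 21.2% of all genes, and 0 of 6 lay below it, against 10.1%. The interval narrows with reads: among the 4132 genes with at least 2054 reads, the number held by Nkx6-2, the share above was 39.6% and the share below 18.3%. None of the 6 was over 2-fold higher with an interval excluding a ratio of 1, against 2.57% of all genes and 0.581% of those with at least 2054 reads.

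Further Nkx genes also stood above the typical gene. Of 7 others listed, 6 had an entry, and all 6 had intervals above the all-gene median, with a median log2 ratio of 0.58. The highest ratios were those of Nkx2-6, a gene of the pharyngeal region, at 0.81 (0.67 to 0.96), with 39.5 and 69.5 CPM, and Nkx1-2 at 0.79 (0.62 to 0.97), with 25.6 and 44.3 CPM. Nkx2-4, the closest relative of Nkx2-1, stood at 0.66 (0.46 to 0.86), with 20.5 and 32.3 CPM. Nkx3-2, a factor of axial skeleton and spleen, stood at 0.50 (0.37 to 0.63) and Nkx6-3, a stomach factor, at 0.49 (0.33 to 0.65). Nkx2-9, which lies near Nkx2-1 and acts in the ventral neural tube, was lowest at 0.33 (0.15 to 0.51), with 27.3 and 34.4 CPM. None of these 6 was over 2-fold higher. Across the 12 Nkx genes the ratios ran from 0.22 at Nkx6-2 to 0.81 at Nkx2-6, and Nkx2-9 was the only one of the further 6 with a ratio below those of Nkx2-2, Nkx2-3 and Nkx2-5. No difference between the 6 and the other Nkx genes was tested.

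**Figure D2:**
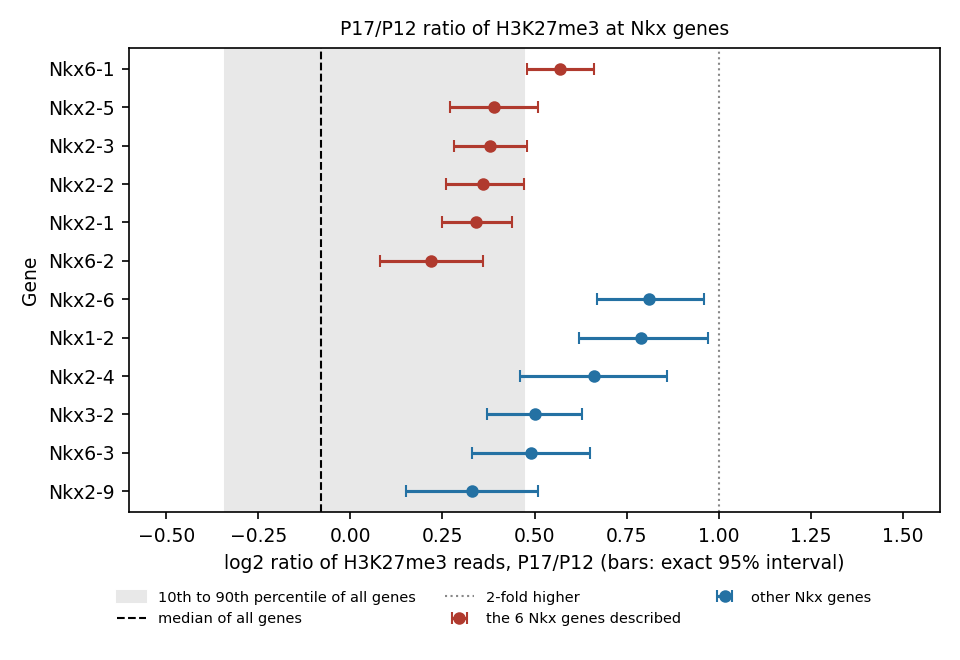
Log2 ratio of H3K27me3 reads at P17 over P12 (x axis) for 12 Nkx genes (y axis), with exact 95% counting intervals as bars; the shaded band is the 10th to 90th percentile of all genes and the dashed line their median of -0.08. The intervals of all 12 genes lie to the right of the dashed line, the 6 described genes (red) from 0.22 to 0.57 and the others (blue) from 0.33 to 0.81.

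The genes next to the Nkx genes stood on both sides of the typical gene. The closest 2 genes with a single entry were taken on each side of each Nkx gene, and genes with no entry or several were skipped. The gene order was that of GRCm38, which may differ from that of mm9. Of the 24 neighbours, 8 had intervals above the all-gene median, 4 below it and 12 across it, beside 21.2% of all genes above and 10.1% below. The 8 include Nkx2-4 and Nkx2-9, also counted with the further Nkx genes, and Nkx2-2as, which overlaps Nkx2-2. Some of the 12 rest on few reads and have wide intervals, such as C87198 (58 and 121 reads) and Phf1 (64 and 99 reads). The median log2 ratio of the 24 was -0.05, near the all-gene median of -0.08. Around Nkx2-5, the neighbours Crebrf (-0.26, -0.42 to -0.11), Bnip1 (0.07, -0.26 to 0.42), Kifc5b (-0.29, -0.60 to 0.03) and Phf1 (-0.35, -0.82 to 0.12) all lay below its 0.39. Around Nkx6-1, the lipid enzyme genes Agpat9 at 0.18 (0.06 to 0.30) and Cds1 at -0.26 (-0.36 to -0.15) and the outer pair, Fam175a at -0.29 and Wdfy3 at -0.01, lay below its 0.57. Around Nkx2-3, Cnnm1 stood at 0.18 (0.09 to 0.27), the aminotransferase gene Got1 and the mitochondrial carrier gene Slc25a28 both at -0.09, and BC037704, on 33 and 34 reads, at -0.92 (-1.68 to -0.21). At these 3 genes the Nkx gene was the highest of the 5 genes compared.

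At the other 3 Nkx genes, a neighbour reached or passed the ratio of the Nkx gene. Beside Nkx2-1 at 0.34, the entry E030019B13Rik (Sfta3-ps in the gene table) stood at 0.37 (0.28 to 0.45), with 114 and 147 CPM, and Nkx2-9 at 0.33, whereas Mbip at -0.16 (-0.48 to 0.16) and C87198 at 0.07 (-0.39 to 0.55) spanned the typical gene. Beside Nkx2-2 at 0.36, Nkx2-4 stood at 0.66 and AI646519 at 0.41 (0.18 to 0.64), whereas the exonuclease gene Xrn2 stood at -0.15 (-0.32 to 0.01). The antisense entry Nkx2-2as, which overlaps Nkx2-2 in the gene table, held 4047 and 8589 reads, or 301 and 322 CPM, and a ratio of 0.10 (0.05 to 0.15). Reads in the overlap cannot be assigned to one of that pair, since these counts of chromatin reads have no strand.

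Nkx6-2 also overlaps another gene in the table, the phosphatase gene Inpp5a. Inpp5a carried 159 and 146 CPM and stood at -0.12 (-0.20 to -0.04), across the typical gene, while Nkx6-2 stood at 0.22. Of the others beside it, Pwwp2b stood higher than Nkx6-2, at 0.33 (0.15 to 0.52), with overlapping intervals. E030019B06Rik stood at -0.35 (-0.55 to -0.16) and Gpr123 at -0.01 (-0.11 to 0.09). The part of shared reads in the lower ratio of Nkx6-2 was not tested.

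**Figure D3:**
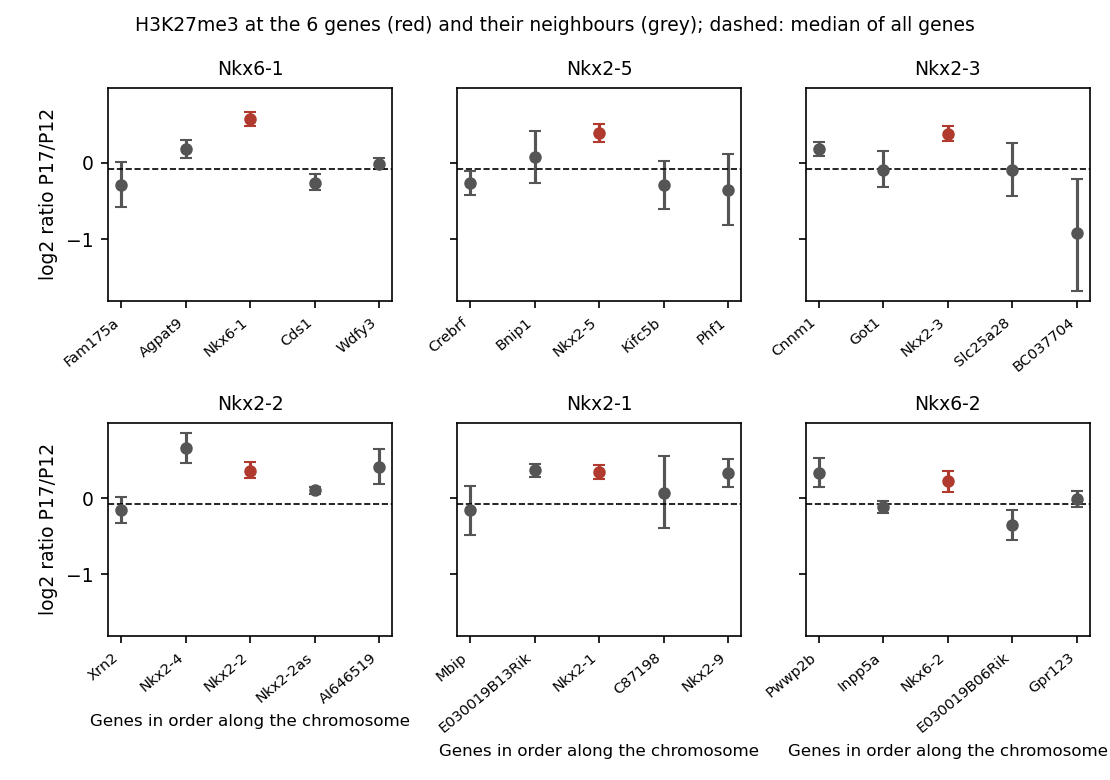
Log2 ratio of H3K27me3 reads at P17 over P12 (y axis) for each of the 6 Nkx genes (red) and its closest 2 genes with a single entry on each side (grey), in chromosome order (x axis, not to distance), with exact 95% intervals and the all-gene median dashed. Nkx6-1, Nkx2-5 and Nkx2-3 stand above all of their neighbours, while E030019B13Rik beside Nkx2-1, Nkx2-4 beside Nkx2-2 and Pwwp2b beside Nkx6-2 are higher than the Nkx gene.

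Most genes of related homeobox families also lay above the typical gene, and no difference between families was tested. The shares of all genes were 21.2% above and 10.1% below, or 39.6% and 18.3% among the genes with at least 2054 reads. Of 25 other NK-like homeobox genes, 20 lay above the typical gene and 2 below, with a median log2 ratio of 0.32. They ran from Barx2, a factor of muscle and epithelia, at -0.32 (-0.41 to -0.23) to Lbx2 at 0.83 (0.58 to 1.10). All 9 Dlx and Msx genes, factors of face, limb and forebrain, lay above it (median 0.25). They ran from Msx2 at 0.09 (-0.07 to 0.26), only just above the all-gene median of -0.08, to Dlx6 at 0.59 (0.45 to 0.73). Of 12 LIM homeobox genes 9 lay above and 0 below (median 0.16), with the motor neuron gene Isl2 highest at 0.74 and Lmx1a lowest at -0.09. Of 6 Iroquois genes 5 lay above and 0 below (median 0.29), from Irx6 at -0.13 to Irx2 at 0.47.

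Genes of the tissues in which the Nkx factors act were listed by tissue, and lists were not tested against each other. Some genes are in several lists and are counted in each, such as Dbx1, Dbx2 and Irx3 of neural tube patterning, which are also in the homeobox lists. Their counts stand beside 21.2% above and 10.1% below over all genes, or 39.6% and 18.3% among genes with at least 2054 reads. Of 16 genes of neural tube patterning, 14 lay above and 0 below (median 0.21), from the Hedgehog effector gene Gli3 at -0.04 (-0.11 to 0.02) to Gli1 at 0.84 (0.72 to 0.96). With TMM scaling, which moved the all-gene median by 0.07 too, Gli3 stood at 0.03. Of 6 myelin genes 2 lay above, Sox10 at 0.53 (0.31 to 0.75) and Mbp at 0.36 (0.29 to 0.43), and 0 below, with a list median of 0.00 and the myelin glycoprotein gene Mog lowest at -0.10 (-0.40 to 0.20). Of 18 pancreatic endocrine genes 8 lay above and 2 below (median 0.17). The insulin gene activator Mafa stood highest at 1.03 (0.74 to 1.34), from 8.54 to 17.5 CPM, and Pax4 lowest at -0.45 (-0.75 to -0.16).

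For Nkx2-1, the list of 16 thyroid, lung and forebrain genes had 7 above and 2 below, with a median of -0.06, close to that of all genes. Its extremes were the alveolar surfactant protein gene Sftpc at 0.59 (0.29 to 0.90) and the airway club cell gene Scgb1a1 at -0.77 (-1.30 to -0.26), the latter on 60 and 69 reads. For Nkx2-5, 13 of 20 cardiac genes lay above and 0 below (median 0.23), from the natriuretic peptide gene Nppb at -0.20 (-0.86 to 0.47) to Srf, which encodes a widely expressed factor of muscle and growth-response genes, at 1.21 (0.90 to 1.54). For Nkx2-3, 6 of 7 gut and spleen genes lay above and 0 below (median 0.42). Of the 7, Nkx3-2 is also counted with the other Nkx genes, Barx1 and Tlx1 with the NK-like genes and Wt1 with the Sertoli markers. The addressin gene Madcam1, a known Nkx2-3 target, was the lowest of the 7 at -0.06 (-0.52 to 0.41), on 61 and 116 reads. Wt1 was the highest at 0.77 (0.67 to 0.87).

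Genes that mark testis cell types gave the following H3K27me3 values, whose part in the Nkx ratios was not tested. Over all genes 21.2% lay above and 10.1% below, or 39.6% and 18.3% among genes with at least 2054 reads. Of 13 Sertoli markers with an entry, 7 lay above the typical gene, 0 below and 6 across it. They ran from Gata1 at -0.30 (-0.90 to 0.30) to Vim at 1.23 (1.03 to 1.45). Their median was 0.33, and their summed level was 498 CPM at P12 and 662 CPM at P17. Of 7 Leydig markers 3 lay above and 1 below, with a median of 0.13 and summed levels of 166 and 210 CPM. Of 10 spermatocyte markers 2 lay above and 5 below, with summed levels of 339 and 302 CPM, from Sycp3 at -0.52 (-0.88 to -0.16) to Stra8, the retinoic acid-induced gene of meiotic entry, at 0.55 (0.37 to 0.75). The median of the spermatocyte markers was -0.22. The median of the 6 Nkx genes was 0.37. List medians near it were those of the Sertoli markers (0.33), the other NK-like homeobox genes (0.32) and the gut and spleen genes (0.42).

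**Figure D4:**
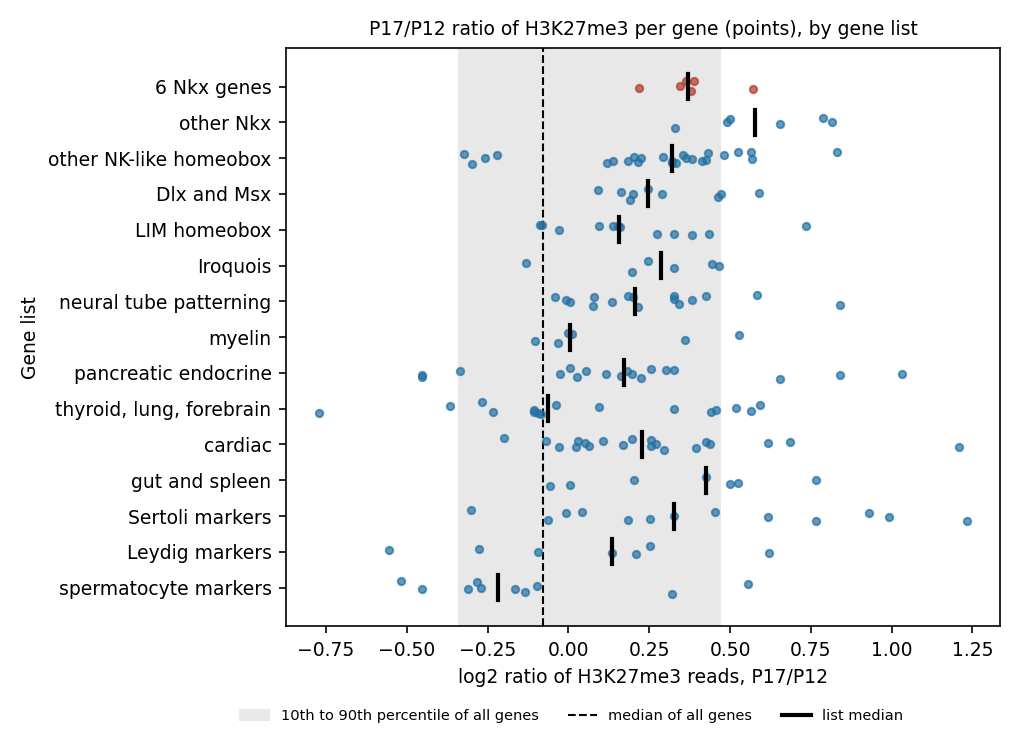
Log2 ratio of H3K27me3 reads at P17 over P12 (x axis) for each gene (points) of 15 gene lists (y axis), with the list median as a black bar, the all-gene median dashed and the 10th to 90th percentile of all genes shaded. The 6 Nkx genes (red) have a median of 0.37, the other Nkx genes 0.58 and the spermatocyte markers -0.22.

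The gene with the most similar level at both stages was found for each Nkx gene among genes with at least 100 reads, by distance in log2 CPM over these 2 libraries. It was Dmrta2 for Nkx6-1, at 99.7 and 145 CPM, and Pax1, a factor of the axial skeleton, for Nkx2-2, at 77.8 and 99.4 CPM. The antisense entry Hoxa11as, at 82.2 and 106 CPM, was nearest to Nkx2-3. For the others it was 4930500L23Rik (Nkx2-1), the adenylate kinase gene Ak4 (Nkx2-5) and the interleukin receptor-like gene Il1rl2 (Nkx6-2). With 2 values a gene, many genes lie nearly as close. The levels are not corrected for gene length, so a similar level need not mean a similar density of the mark.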

How the data were processed

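The authors deposited, per gene symbol, the raw count of H3K27me3 reads over the gene body in 23530 entries for each stage; the file names give multiBamCov as the counter. No normalization or subtraction of input is recorded. Bowtie, SAMtools, HTSeq and mm9 are named, without role, in the submitters' processing notes. Entries of the 146 symbols that occur more than once (10.6% of reads at P12 and 10.1% at P17) count toward column totals but were not used as single genes. Counts were scaled to the column total of gene-body reads (CPM). Log2 ratios used a pseudocount of 1 read, in proportion to that total, and a minimum of 20 reads over both stages. Intervals were 95%. Above or below the typical gene means that the whole interval was on that side of the all-gene median. All steps ran in Python 3.11.15 with scipy 1.17.1; edgeR 4.0.16 gave TMM factors. The calculation was tested on simulated counts that held counting error only, so that test does not bear on differences between libraries.

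The 6 genes and all lists were chosen with earlier results of these data known. Genes named were the 6, the other Nkx genes, their neighbours, the nearest gene by level, and genes with at least 50 reads that had the highest or lowest ratio or the highest P17 level of a list; of the last, only some are printed. Results for some listed genes are not reported here. Neighbours and promoters came from RefSeq tables of GRCm38.p6. All 6 symbols matched in both. A comparison of homeodomain sequences that had been listed was not made, since no protein sequences were used here.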

Additional observations from a re-analysis of the deposited data

How the results depend on the processing

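The scaling alternatives (TMM factors, median-of-ratios factors, totals without the 20 largest entries or without repeated symbols) shift every gene and the all-gene median almost alike, so they bear little on which genes lie above the typical gene. The number over 2-fold remained 0 of 6. It could hardly change, since the highest log2 ratio under any of them was 0.65, well below 2-fold. With pseudocounts of 0.5 and 5 and minimums of 1 and 100 reads, 6 of 6 lay above the typical gene and 0 were over 2-fold higher. These settings could hardly change that either. Each of the 6 genes has at least 2054 reads, and the intervals use no pseudocount. Over all settings the 6 genes had a median log2 ratio of 0.36 to 0.45, with Nkx6-1 ranging from 0.56 to 0.65 and Nkx6-2 from 0.21 to 0.30. TMM and median-of-ratios factors moved the all-gene median by 0.07 and 0.08 and each Nkx ratio alike. With these factors 11 and 12 of 71 other named genes moved beyond their counting interval, and none with the remaining settings. The share of all genes above the typical gene was 21.2%, and 39.6% among genes with at least as many reads as Nkx6-2, a setting chosen after seeing the data. No paired analysis was possible because each stage has 1 file, and no replicate could be left out for the same reason. Of 15 pairs among the 6 genes, 10 had an interval of the difference that includes 0, and whether deeper libraries would separate them was not tested.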
